A study of Mus musculus with 6 samples.

Results

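The 10 genes described here belong to the Notch signalling pathway and were taken by symbol from the 21240 genes of the count table. They are the ligands Jag1, Jag2 and Dll1, the receptors Notch1, Notch2, Notch3 and Notch4, the receptor-modifying enzyme Lfng, and the target genes Hes1 and Hey1. Each had 1 row in the table. The table holds stranded total RNA-seq of NMuMG cells, an established epithelial line from the mouse mammary gland for which the labels name no genetic change. All cells were first kept in serum-free medium for 6 h, after culture with serum and insulin. According to the study's methods, this medium lacked insulin as well. The 3 groups then received vehicle for 2 h, TGFβ1 at 5 ng/ml for 2 h, or TGFβ1 at 5 ng/ml for 12 h, and each group had 2 biological replicates, 6 libraries in all. The vehicle held BSA with Tris-HCl according to the sample labels and BSA with HCl according to the treatment protocol. No vehicle library was taken at 12 h. In the comparison of 12 h with vehicle, the effect of TGFβ1 cannot be told apart from a longer time without serum and insulin. The comparison of 12 h with 2 h has the same limit, as these groups also differ in that time.

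Notch signalling passes between touching cells. A ligand of the Jagged or Delta-like family on the surface of a cell binds a Notch receptor on its neighbor, the receptor is cut by an ADAM protease and then by γ-secretase, and its freed intracellular part enters the nucleus, where it joins the DNA-binding protein RBPJ and a Mastermind coactivator to switch on genes such as the transcriptional repressors Hes1 and Hey1. Lunatic fringe, the product of Lfng, adds sugars to the receptor in the Golgi and so changes its response to the different ligands. TGFβ acts mainly through SMAD proteins and drives NMuMG cells from an epithelial towards a mesenchymal state.

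The libraries held between 14705886 and 23786993 counts. Values are given below as CPM, the counts of a gene relative to the library total, scaled by TMM factors, which correct for differences in library composition, and means are followed by the SD of 2 libraries. A gene was tested if at least 2 libraries had at least 2 CPM, which 11080 genes and 9 of the 10 Notch pathway genes did. Differences are log2 fold changes (log2FC) from the quasi-likelihood test of edgeR, with p-values adjusted over all genes tested by the Benjamini-Hochberg method, and a gene was called at an adjusted p under 0.05. Smad7 and Skil, which TGFβ is known to induce, had log2FC of 2.07 and 2.09 at 2 h. Of 7 epithelial markers 5 were tested, with Krt8, Krt18, Krt19, Cdh1 and Ocln well expressed, but Epcam had at most 16 counts and Cldn3 at most 1 in any library. The summed level of the epithelial markers was 5030 to 5870 CPM with vehicle, 6520 to 6530 CPM at 2 h and 10400 CPM in both libraries at 12 h, while that of 6 fibroblast markers was 3.51 to 4.65 CPM, 9.13 to 9.47 CPM and 14.8 to 16 CPM, with the rise mostly in Col1a1. The higher epithelial sum at 12 h came from Krt8 and Krt18 (log2FC 1.63 and 1.53), while Krt19 was 3.86-fold lower (log2FC -1.95, edgeR adjusted p = 0.000103) and Cdh1 and Ocln were not called (log2FC -0.07 and -0.52). Myoepithelial markers summed to 2.55 to 11.8 CPM and immune markers to 5.1 to 7.33 CPM over the 6 libraries. The part of these shifts in the results below was not tested. In such bulk samples, fewer cells that express a gene and less RNA of it per cell cannot be told apart.

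The RefSeq promoters of 4 of the genes are printed because these genes went in opposite directions or differed in the motifs found. Each is the 250 bases before the transcription start on GRCm38.p6, written 5′ to 3′ along the gene. Capitals mark TGGGAA, the core of the RBPJ motif, TGANTCA, the AP-1 motif, and CAGAC, the Smad box, on either strand.
Jag1 (chr2:137116521-137116770, minus strand): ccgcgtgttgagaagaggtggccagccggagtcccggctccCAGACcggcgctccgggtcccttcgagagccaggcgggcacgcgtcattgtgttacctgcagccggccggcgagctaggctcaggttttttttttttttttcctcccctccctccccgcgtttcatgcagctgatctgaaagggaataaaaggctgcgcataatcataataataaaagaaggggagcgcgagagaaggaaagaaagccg
Lfng (chr5:140607091-140607340, plus strand): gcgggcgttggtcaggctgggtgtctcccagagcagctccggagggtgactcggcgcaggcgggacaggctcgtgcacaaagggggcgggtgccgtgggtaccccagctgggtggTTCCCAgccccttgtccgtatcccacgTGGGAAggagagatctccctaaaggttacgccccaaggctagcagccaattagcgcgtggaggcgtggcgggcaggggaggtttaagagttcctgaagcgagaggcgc
Dll1, promoter 2 (chr17:15376933-15377182, minus strand): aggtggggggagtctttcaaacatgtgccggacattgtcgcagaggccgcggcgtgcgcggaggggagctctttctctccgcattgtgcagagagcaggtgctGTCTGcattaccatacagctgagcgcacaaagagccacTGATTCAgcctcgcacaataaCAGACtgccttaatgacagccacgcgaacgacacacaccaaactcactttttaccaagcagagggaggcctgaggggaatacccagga
Notch1 (chr2:26503823-26504072, minus strand): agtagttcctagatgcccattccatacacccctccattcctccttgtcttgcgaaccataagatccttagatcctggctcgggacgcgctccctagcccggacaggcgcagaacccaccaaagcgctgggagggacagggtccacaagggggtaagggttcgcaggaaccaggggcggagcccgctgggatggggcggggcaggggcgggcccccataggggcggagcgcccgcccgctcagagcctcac
The Jag1 window held 1 Smad box, 209 bases before the start. Both TGGGAA matches of the Lfng window lay close together, 135 and 108 bases before the start, on opposite strands. The second Dll1 promoter held an AP-1 match 109 bases before the start, between Smad boxes at 147 and 88 bases, and its first promoter held 1 Smad box at 122 bases. Notch3 had 2 Smad boxes, and no motif was found in the windows of Jag2, Notch1, Notch2 and Notch4. Hes1 and Hey1 were not among the promoters used. Over all 32851 RefSeq promoters in windows of the same length, 21.6% held TGGGAA, 6.75% held TGANTCA and 42.2% held CAGAC, so a single Smad box is common. A match describes these letters only, and binding was not measured here.

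At 2 h, 6 of the 9 tested genes were called, beside 15.2% of all genes tested. Jag1, Jag2, Notch2 and Lfng rose, 4 genes beside 9.91% of all genes, and Notch1 and Hes1 fell, 2 genes beside 5.25%. At 12 h, 8 of the 9 were called, beside 43.3% of all genes tested. Jag1, Jag2, Dll1, Notch2, Notch4 and Lfng were higher than with vehicle, 6 genes beside 21.8% of all genes, and Notch1 and Hey1 were lower, 2 genes beside 21.5%. The same 6 genes that passed at 2 h, and 6 of the 8 at 12 h, also had an absolute log2FC above 1, beside 6.25% and 19.6% of all genes. Both comparisons use the same vehicle libraries and are therefore not independent. Notch4 met the filter only through its 12 h libraries, so its place among the genes higher at 12 h is no independent result. A filter of at least 10 counts in all libraries left Notch4 out. With it 7 of 8 tested genes were called at 12 h, 5 of them higher, beside 4528 of 11055 genes. The median absolute log2FC of the 9 genes was 1.27 at 2 h and 1.91 at 12 h, against 0.24 and 0.39 over all genes tested. The genes were chosen with earlier results of these data known, so these shares and medians are a description and no test. Without TMM factors the median over all genes shifted by -0.11 at 2 h and -0.13 at 12 h, and each of the 9 genes kept its direction and call at both times.

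**Figure D1:**
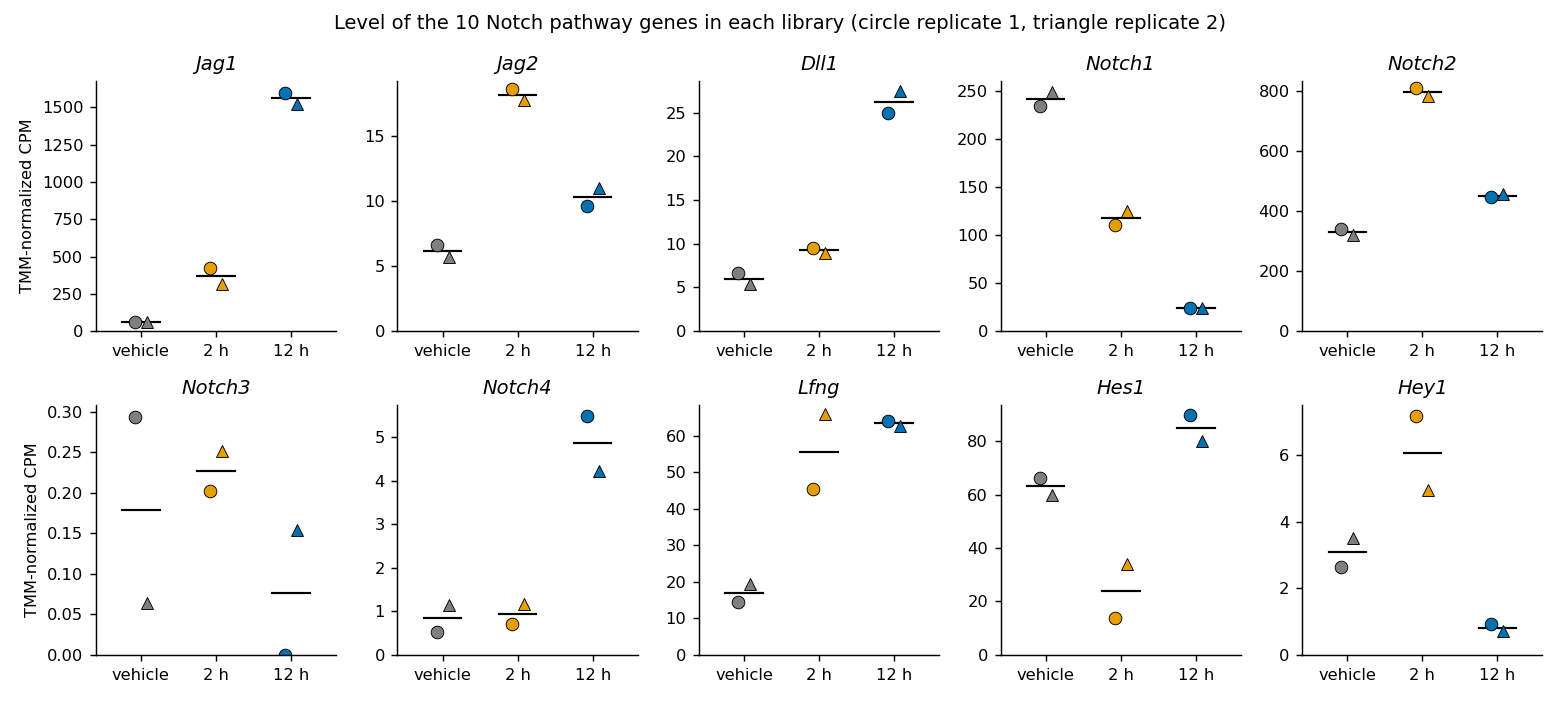
TMM-normalized CPM of the 10 Notch pathway genes in each library, with vehicle in gray, 2 h of TGFβ1 in orange and 12 h in blue; circles are replicate 1, triangles replicate 2, lines the mean of 2 libraries, and each panel has its own linear axis from 0. Jag1 lay at 60.2 to 63.2 CPM with vehicle and at 1520 to 1600 CPM at 12 h, Notch1 at 234 to 249 CPM and then 24 to 24.4 CPM, and the Hes1 replicates at 2 h stand apart.

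Jag1 (Entrez 16449, chr2:136907192-136942380 on the minus strand of mm9) encodes Jagged-1 and was the most changed of the ligands. Its level was 63.2 and 60.2 CPM with vehicle, 426 and 314 after 2 h, and 1600 and 1520 after 12 h. The groups did not overlap, and the libraries were ordered by time in both replicates. The mean rose from 61.7 ± 2.09 CPM to 370 ± 79 CPM at 2 h, 5.99-fold (log2FC 2.58, SE 0.165, edgeR adjusted p = 0.000402). At 12 h it was 1560 ± 54.2 CPM, 25.3-fold above vehicle (log2FC 4.66, SE 0.18, edgeR adjusted p = 3.159e-05). The further rise from 2 h to 12 h was 4.22-fold (edgeR adjusted p = 0.000418). Leaving out any single library kept its log2FC between 2.33 and 2.79 at 2 h and between 4.61 and 4.69 at 12 h. The single Smad box of its promoter, shown above, is the only motif of the 3 found there.

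Jag2 (Entrez 16450, chr12:114146801-114167706, minus strand), which encodes the related ligand Jagged-2, had its highest level at 2 h. Its libraries held 6.6 and 5.74 CPM with vehicle, 18.6 and 17.8 after 2 h, and 9.63 and 11 after 12 h. Both 2 h libraries lay above both 12 h libraries, which in turn lay above the vehicle libraries. Jag2 rose 2.95-fold at 2 h (log2FC 1.56, SE 0.169, edgeR adjusted p = 0.00218) and was 1.67-fold above vehicle at 12 h (log2FC 0.74, SE 0.169, edgeR adjusted p = 0.0123). Between 2 h and 12 h it fell by 0.82 on the log2 scale (edgeR adjusted p = 0.00992). The call at 12 h was lost without vehicle replicate 2 (edgeR adjusted p = 0.0831) or without 12 h replicate 2 (edgeR adjusted p = 0.0853), and the fall from 2 h to 12 h without 12 h replicate 1 (edgeR adjusted p = 0.0833).

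Dll1 (Entrez 13388, chr17:15504318-15513836, minus strand), the Delta-like 1 ligand, was highest at 12 h. It had 6.6 and 5.42 CPM with vehicle, 9.57 and 8.98 after 2 h, and 24.9 and 27.5 after 12 h. The groups did not overlap at either time. At 2 h its log2FC of 0.62 (SE 0.171) missed the threshold with an edgeR adjusted p of 0.0553. At 12 h Dll1 was 4.35-fold above vehicle (log2FC 2.12, SE 0.17, edgeR adjusted p = 0.000202), and it rose 2.82-fold between 2 h and 12 h (edgeR adjusted p = 0.00115).

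Notch1 (Entrez 18128, chr2:26313423-26372183, minus strand) was the receptor that fell. Its level was 234 and 249 CPM with vehicle, 111 and 125 after 2 h, and 24 and 24.4 after 12 h. Each step down was far larger than the difference between replicates, and no groups overlapped. Notch1 was 2.04-fold lower at 2 h (log2FC -1.03, SE 0.105, edgeR adjusted p = 0.00179) and 9.97-fold lower at 12 h (log2FC -3.32, SE 0.115, edgeR adjusted p = 3.159e-05). From 2 h to 12 h it fell by 2.29 on the log2 scale (edgeR adjusted p = 0.000131). Its log2FC at 12 h lay between -3.45 and -3.28 under the 15 alternative ways of processing the counts.

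Notch2 (Entrez 18129, chr3:97817461-97954290, plus strand) went up and partly came back. The libraries had 342 and 321 CPM with vehicle, 810 and 786 after 2 h, and 449 and 456 after 12 h. As with Jag2, the 2 h libraries were the highest and the 12 h libraries lay between the other groups. The mean of 332 ± 14.7 CPM rose to 798 ± 16.9 CPM at 2 h, 2.4-fold (log2FC 1.27, SE 0.0973, edgeR adjusted p = 0.000696). At 12 h it was 453 ± 4.83 CPM, 1.36-fold above vehicle (log2FC 0.45, SE 0.0961, edgeR adjusted p = 0.00978). The 12 h call was lost without vehicle replicate 2 (edgeR adjusted p = 0.0774) and without either 12 h replicate (0.0649 and 0.0759). The difference of -0.82 between 12 h and 2 h passed the test (edgeR adjusted p = 0.00151).

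The other receptors were close to the detection limit. Notch3 (Entrez 18131, chr17:32257765-32303825, minus strand) had 5 and 1 counts with vehicle, 4 and 5 at 2 h, and 0 and 3 at 12 h, so it was not tested and no fold is given. Notch4 (Entrez 18132, chr17:34701213-34725448, plus strand), another receptor, had 9 and 18 counts with vehicle, 14 and 23 at 2 h, and 126 and 82 at 12 h. The 12 h libraries, at 5.49 and 4.21 CPM, stood above all others, while the ranges with vehicle and at 2 h overlapped. Notch4 was 5.81-fold above vehicle at 12 h (log2FC 2.54, SE 0.428, edgeR adjusted p = 0.00371) and 5.17-fold above 2 h (edgeR adjusted p = 0.00609). The log2FC against vehicle was 2.07 without vehicle replicate 1 and 3.18 without vehicle replicate 2. Its log2FC at 2 h was 0.17 (SE 0.481, edgeR adjusted p = 0.849), and this turned to -0.30 without vehicle replicate 1 and to -0.23 without 2 h replicate 2.

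Because Notch4 is best known from endothelial cells, the endothelial markers were read beside it. Their summed level was 0.177 to 0.255 CPM with vehicle, 0.354 to 0.404 CPM at 2 h and 1.74 to 1.95 CPM at 12 h. Of the 6 markers none was tested. Cdh5, the adhesion protein of endothelial junctions, had 1 and 2 counts with vehicle, 6 and 5 at 2 h, and 39 and 36 at 12 h. The other 5, Pecam1, Tek, Kdr, Tie1 and Emcn, had at most 2 counts in any library, with Emcn at 0 in all 6. The 12 h libraries, which were highest in Notch4, were thus also highest in Cdh5, with the other endothelial markers at or near 0. At 2 h Cdh5 had more counts than with vehicle, whereas the Notch4 ranges overlapped.

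Lfng (Entrez 16848, chr5:141083295-141091497, plus strand) had reached its higher level by 2 h. It had 14.5 and 19.3 CPM with vehicle, 45.3 and 65.9 after 2 h, and 64.1 and 62.6 after 12 h. Both treated groups lay above vehicle, and the 12 h libraries fell within the range of the 2 h libraries. Lfng rose 3.29-fold at 2 h (log2FC 1.72, SE 0.218, edgeR adjusted p = 0.00383) and 3.75-fold at 12 h (log2FC 1.91, SE 0.218, edgeR adjusted p = 0.000746). Between 12 h and 2 h the log2FC was 0.19 (SE 0.206, edgeR adjusted p = 0.51), and -0.06 without 2 h replicate 1.

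Hes1 (Entrez 15205, chr16:30064470-30067882, plus strand), a repressor gene that is a classic target of Notch, dipped at 2 h. Its libraries had 66.1 and 60 CPM with vehicle, 13.9 and 34.1 after 2 h, and 89.8 and 79.9 after 12 h. Both 2 h libraries were lower than every other library, but they differed from each other by -1.28 on the log2 scale, the largest replicate difference of the 9 genes. Hes1 was 2.63-fold lower at 2 h (log2FC -1.39, SE 0.366, edgeR adjusted p = 0.0494), a value just under the threshold. The log2FC was -0.90 without 2 h replicate 1 and -2.18 without 2 h replicate 2, and both kept the call. The call was lost when only the vehicle and 2 h groups were fitted (edgeR adjusted p = 0.116), without vehicle replicate 1 (0.175) or 2 (0.125), and without either 12 h library (0.115 each). DESeq2, on the other hand, gave an adjusted p of 0.000803 and limma-voom 0.0329.

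At 12 h the Hes1 level of 84.9 ± 7.04 CPM lay above the 63.1 ± 4.35 CPM of vehicle, without overlap, but the log2FC of 0.43 (SE 0.353) did not pass (edgeR adjusted p = 0.366). When the 2 h libraries, or either of them, were left out of the fit, this difference was called (edgeR adjusted p = 0.0183 without both, 0.0204 without replicate 1 and 0.0172 without replicate 2). From 2 h to 12 h Hes1 rose 3.53-fold (log2FC 1.82, SE 0.367, edgeR adjusted p = 0.0105). The log2FC was 1.32 without 2 h replicate 1 and 2.61 without 2 h replicate 2. The call was lost without 12 h replicate 1 (edgeR adjusted p = 0.0737) or 12 h replicate 2 (0.0583).

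Hey1 (Entrez 15213, chr3:8663362-8667039, minus strand), the other repressor of this class, had log2FC against vehicle of the sign opposite to Hes1 at each time. No test compared Hey1 with Hes1. It had 2.65 and 3.51 CPM with vehicle, 7.19 and 4.95 after 2 h, and 0.915 and 0.719 after 12 h. All 3 groups were separate, with 45 and 55 counts behind the vehicle values and 21 and 14 behind those at 12 h. At 2 h the log2FC of 0.98 (SE 0.295) missed the threshold (edgeR adjusted p = 0.074). It was 0.67 without 2 h replicate 1 and 1.22 without 2 h replicate 2. Without vehicle replicate 1 it was 0.79, and without vehicle replicate 2 it was 1.19. At 12 h Hey1 was 3.72-fold lower than with vehicle (log2FC -1.90, SE 0.34, edgeR adjusted p = 0.00478) and 7.33-fold lower than at 2 h (log2FC -2.87, SE 0.33, edgeR adjusted p = 0.00137). The plot of adjusted p at 2 h shows how close Dll1, Hes1 and Hey1 lie to the threshold.

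**Figure D2:**
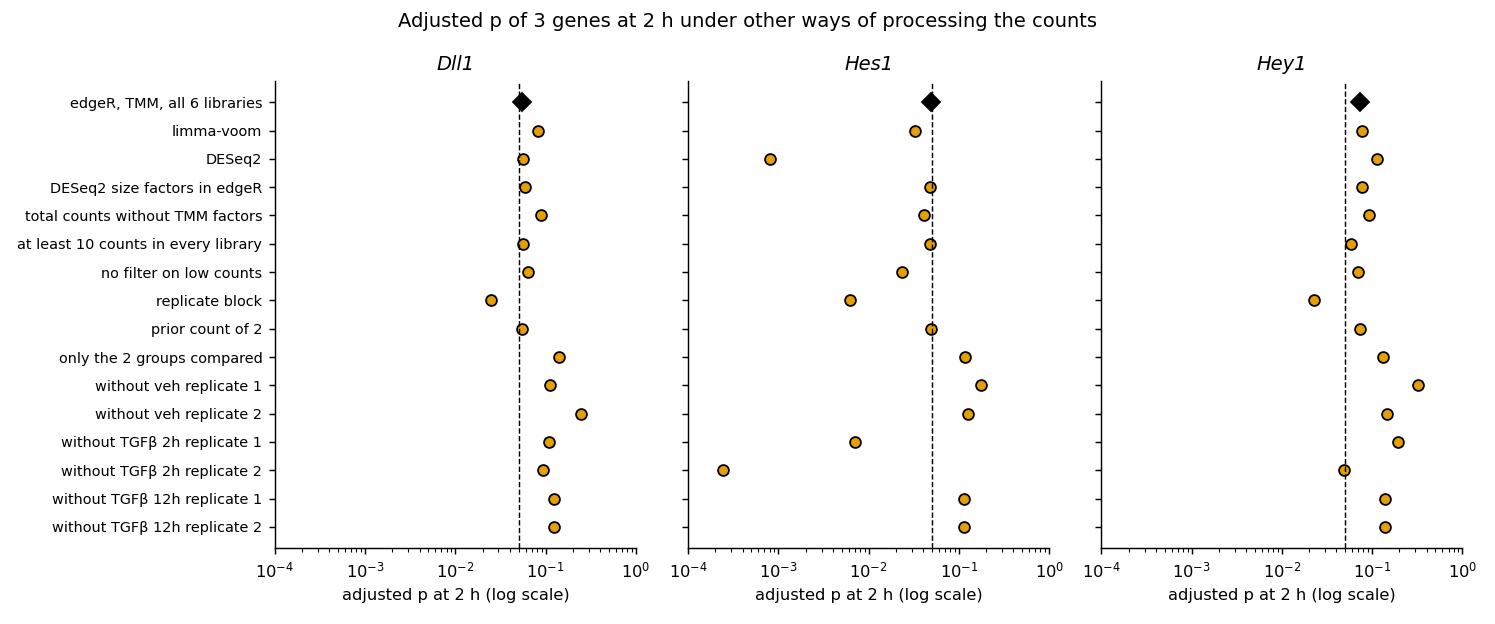
Adjusted p (log axis) of Dll1, Hes1 and Hey1 for 2 h against vehicle. A black diamond marks edgeR on all 6 libraries, orange circles mark other ways of processing the counts, and the dashed line is at 0.05. Hes1 runs from 0.00024 to 0.175 and falls on both sides of the line. Dll1 lies below it with the replicate block and above it otherwise, and Hey1 lies below it with the replicate block and without 2 h replicate 2.

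The direct comparison of 12 h with 2 h called 8 of the 9 genes, 4 higher and 4 lower, beside 34.1% of all genes tested, of which 15.2% were higher and 18.9% lower. Jag1, Dll1, Notch4 and Hes1 were higher at 12 h than at 2 h, Jag2, Notch1, Notch2 and Hey1 were lower, and Lfng alone was not called. Of these, Jag1 and Notch1 had moved the same way from vehicle to 2 h, whereas Jag2 and Notch2 turned back towards vehicle and the mean of Hes1 went from below vehicle to above it. The ligand Dll1 and the receptor Notch4 were called at 12 h and not at 2 h. Notch4 met the filter only through its 12 h libraries. With at least 10 counts in all libraries, 12 h against 2 h called 7 of 8 tested genes, 3 higher and 4 lower, beside 3535 of 11055 genes. The count of 8 fell without either 12 h library, where Notch4 no longer met the filter, and the count over all genes tested fell as well. The same held for the comparison of 12 h with vehicle.

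**Figure D3:**
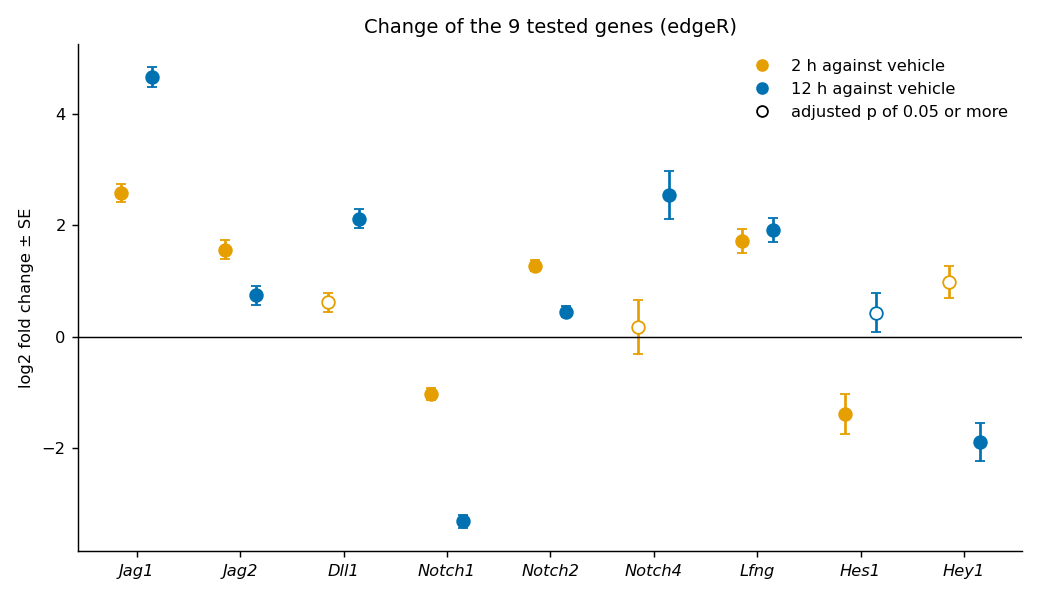
Log2 fold change (points) with its SE (bars) of the 9 tested Notch pathway genes at 2 h (orange) and 12 h (blue) against the shared vehicle libraries; open points had an adjusted p of 0.05 or more. Jag1 has the highest value, 4.66 at 12 h, and Notch1 the lowest, -3.32 at 12 h. Hes1 and Hey1 point in opposite directions at each time, but Hey1 at 2 h and Hes1 at 12 h were not called.

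Levels of different genes were compared as CPM per kilobase of exon, using the union of exons in the GENCODE annotation of NCBIM37, the same build as mm9. According to the study's methods the reads were counted over UCSC KnownGene exons, so the counted exons may differ from these. No other gene overlapped their exons on the same strand, while Dll1, Notch1, Notch3 and Notch4 have annotated genes on the opposite strand, from which stranded counting keeps them apart. With vehicle, Notch2 and Hes1 were the most abundant, at 31.6 ± 1.4 and 31 ± 2.14 CPM per kb, and they did not differ beyond their spread on this measure. Notch1 followed with 16.9 ± 0.735, Jag1 with 10.6 ± 0.358 and Lfng with 7.41 ± 1.5 CPM per kb. Jag2 (1.52 ± 0.15), Dll1 (1.42 ± 0.197) and Hey1 (1.4 ± 0.275 CPM per kb) could not be ranked beyond their spread, and Notch4 and Notch3 were the lowest. At 2 h, Notch2 (75.9 ± 1.61 CPM per kb) and Jag1 (63.5 ± 13.6) led, with a difference between them smaller than the SD of Jag1, and Hes1 had dropped to 11.8 ± 7.01 CPM per kb. At 12 h, Jag1 was first by a wide margin with 268 ± 9.3 CPM per kb, ahead of Notch2 (43.1 ± 0.46) and Hes1 (41.7 ± 3.45 CPM per kb), whose ranges overlapped. Both ties of Notch2 with Hes1 depend on the length used. The longest transcript of Hes1 has 1.47 kb, against 2.04 kb of union exon, while Notch2 has 10.5 kb on either measure. On the longest transcript, Hes1 would lie above Notch2 with vehicle and at 12 h.

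The makeup of the receptors and ligands changed accordingly. On this per-length scale Notch1 made up 33.5% and 36.2% of the 4 receptors with vehicle, 9.18% and 10.5% at 2 h, and 3.73% and 3.75% at 12 h, nearly all of the rest being Notch2. The ratio of Notch2 to Notch1 was 1.98 and 1.75 with vehicle, 9.87 and 8.5 at 2 h, and 25.4 and 25.3 at 12 h. When the longest transcript was used in place of the union of exons, the mean ratio was 1.24, 6.13 and 16.9, lower at each time and in the same order. Among the 3 ligands, Jag1 held 77.3% and 79.3% with vehicle, 91.4% and 89.2% at 2 h, and 97.1% and 96.6% at 12 h. The summed level of the 3 ligands relative to that of the 4 receptors went from 0.286 and 0.27 to 0.94 and 0.721, and then to 6.26 and 5.92. These are ratios of RNA levels, chosen after the values had been seen and given without a test.

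**Figure D4:**
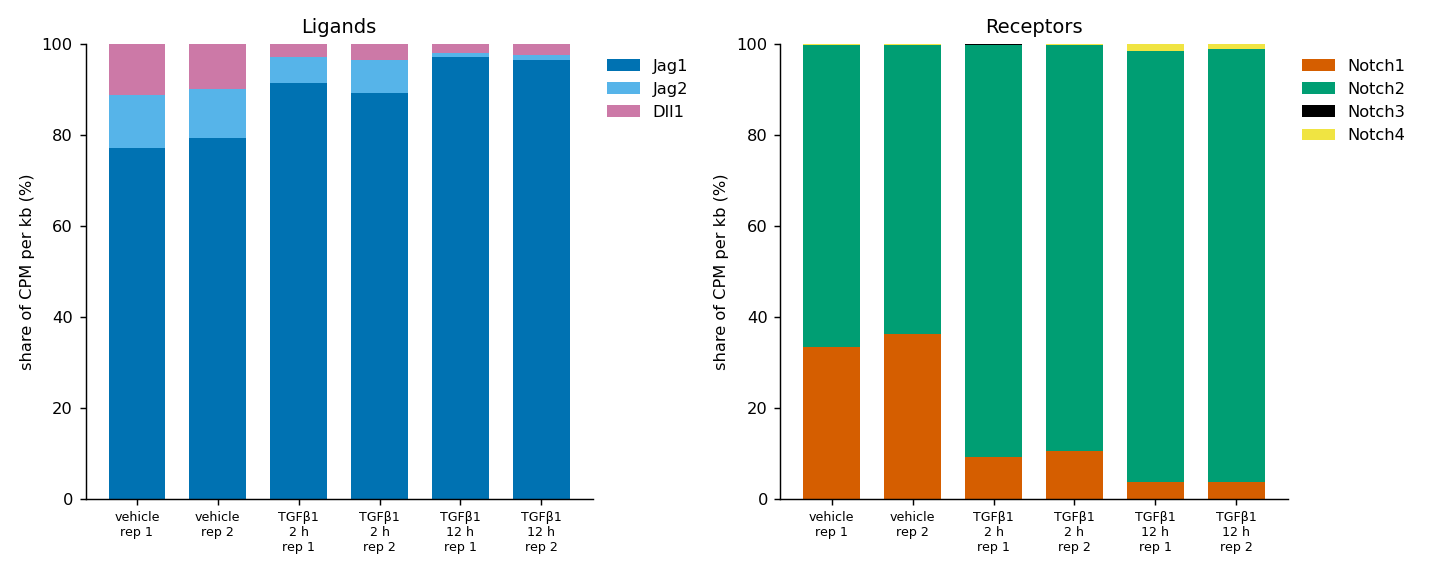
Share (%) of each of 3 Notch ligands (left) and 4 Notch receptors (right) in their summed CPM per kilobase of exon, by library. Jag1 takes 77.3% to 79.3% of the ligands with vehicle and 96.6% to 97.1% at 12 h, and Notch1 takes 33.5% to 36.2% of the receptors with vehicle and 3.73% to 3.75% at 12 h.

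Of 52 further genes of the pathway, 37 were tested. At 2 h 8 of them were called, 5 higher and 3 lower, and at 12 h 15 were called, 8 higher and 7 lower, which are 21.6% and 40.5% of those tested, beside 15.2% and 43.3% of all genes. Their median absolute log2FC of 0.27 and 0.30 was near the 0.24 and 0.39 of all genes tested, and the 9 Notch pathway genes above had larger values. Both sets were chosen with earlier results of these data known, so no conclusion is drawn from this contrast. The count at 2 h fell without either vehicle library, and that at 12 h fell without either 12 h library. The counts over all genes tested fell in the same fits.

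In ligand endocytosis, the step by which the ligand-bearing cell pulls on the receptor, 1 of 4 genes was called at 2 h and 2 of 4 at 12 h, in opposite directions, beside 15.2% and 43.3% of all genes tested. Neurl1b, an E3 ubiquitin ligase of Notch ligands, had 320 and 368 CPM with vehicle, 74.6 and 94.9 after 2 h, and 9.07 and 14.1 after 12 h. Its log2FC was -2.02 at 2 h (SE 0.219, edgeR adjusted p = 0.00219) and -4.90 at 12 h (SE 0.253, edgeR adjusted p = 5.107e-05). Neurl1a, its paralog, went the other way, from 8.01 and 10.8 CPM with vehicle to 27.6 and 32.5 CPM at 12 h (log2FC 1.68, edgeR adjusted p = 0.00158), with a log2FC of 0.57 at 2 h that did not pass (edgeR adjusted p = 0.153). Mib1 and Mib2, the other ligases of this step, were not called at either time.

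Among the other ligands only Dlk2, a Delta-like protein that lacks the receptor-activating domain, was tested. It had 157 and 131 counts with vehicle, 131 and 119 at 2 h, and 3 and 6 at 12 h. Its log2FC was -0.48 at 2 h (edgeR adjusted p = 0.249) and -5.32 at 12 h (SE 0.352, edgeR adjusted p = 0.000104). The Delta-like ligand Dll4 had 0 counts in both vehicle libraries, 8 and 17 at 2 h, and 9 and 5 at 12 h, too few to be tested, and it is named because of these values. Dll3, Dlk1 and Dner had at most 1 count in any library.

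Among the proteases and γ-secretase subunits, Furin, the convertase that cuts the receptor precursor, rose from 102 and 136 CPM to 374 and 340 CPM at 2 h (log2FC 1.58, edgeR adjusted p = 0.0025) and stood at 391 and 315 CPM at 12 h (log2FC 1.57, edgeR adjusted p = 0.000726). Aph1b was lower at both times (log2FC -0.86 and -0.94), and reads of this gene are uncertain because Aph1c is a near-identical copy. Adam17 was lower at 12 h (log2FC -0.69), while Adam10, the protease that makes the ligand-dependent cut, was not called.

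In the nuclear complex, Rbpj itself was not called, with log2FC of -0.05 at 2 h and -0.44 at 12 h (edgeR adjusted p = 0.896 and 0.136). The coactivator Maml2 rose at 12 h from 9.78 and 6.25 CPM to 23.8 and 18.5 CPM (log2FC 1.40, edgeR adjusted p = 0.00951). The acetyltransferase Kat2b was lower at both times (log2FC -0.68 and -0.81). Maml1, Maml3, Ep300 and Crebbp were not called.

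Of the regulators of the receptor, Dtx4, a member of the Deltex family of ubiquitin ligases, went from 8.48 and 10.5 CPM with vehicle to 23.9 and 36.1 CPM at 2 h and 46.3 and 48.4 CPM at 12 h (log2FC 1.67 and 2.32, edgeR adjusted p = 0.00473 and 0.00039). Fbxw7, which marks the active intracellular domain for degradation, rose at both times (log2FC 0.82 and 0.69), Dtx2 was higher and Dtx3l lower at 12 h (0.79 and -0.49), and Rfng, the radical fringe paralog of Lfng, was lower at 12 h (-0.78). Other target genes of the pathway were mostly silent. Hes3, Hes5 and Heyl had 0 counts in all 6 libraries, Hes2, Hes7 and Hey2 at most 3, and Hes6 was tested but not called. Nrarp, a feedback inhibitor induced by Notch, had 12 and 21 counts with vehicle, 23 and 19 at 2 h, and 37 and 34 at 12 h, below the filter.

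**Figure D5:**
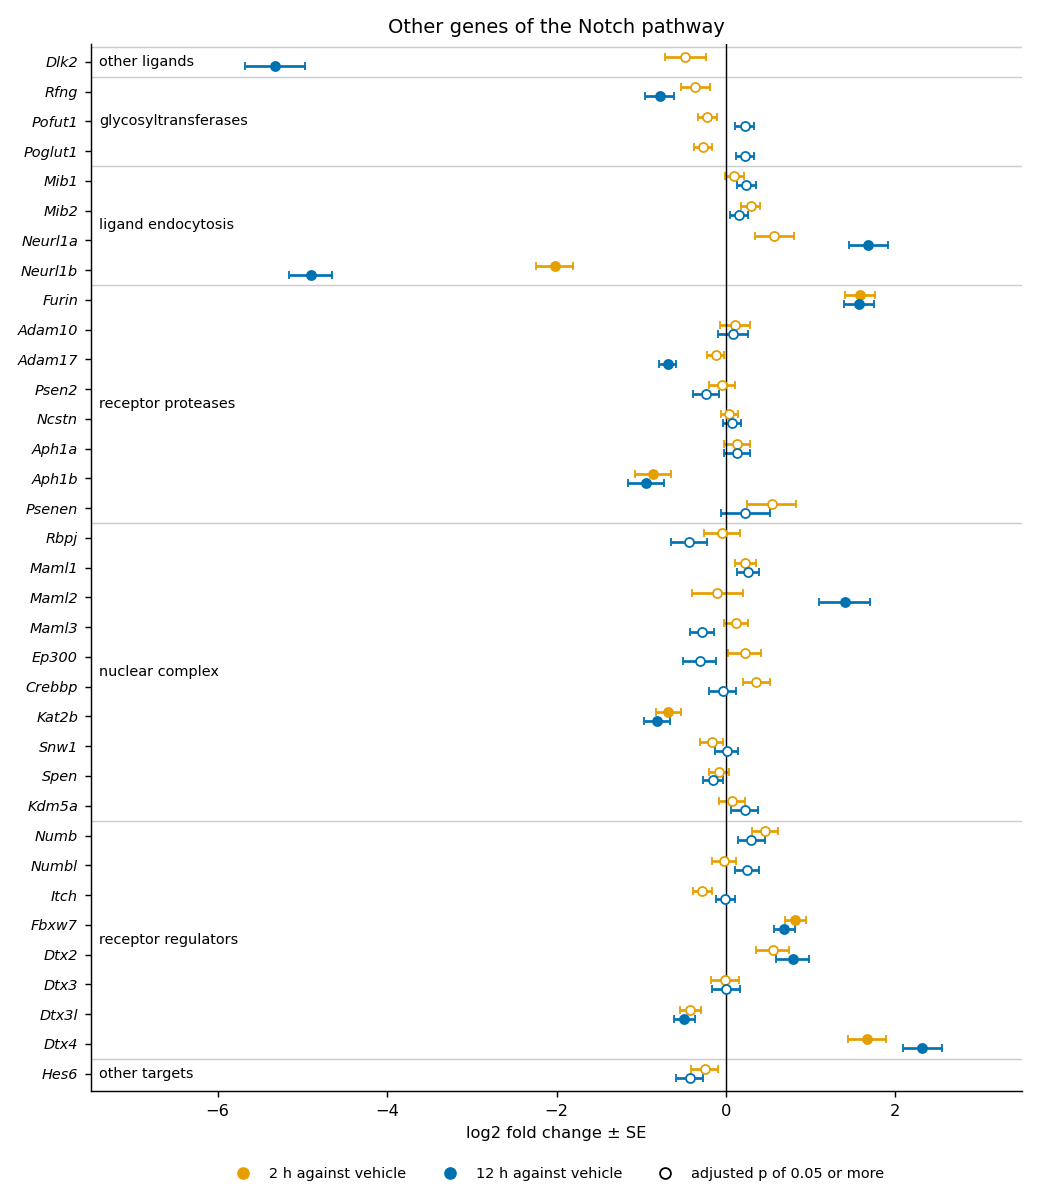
Log2 fold change (points) with its SE (bars) of further Notch pathway genes at 2 h (orange) and 12 h (blue) against vehicle, by role; open points had an adjusted p of 0.05 or more. Neurl1b and Dlk2 at 12 h, at -4.90 and -5.32, stand far below the other genes, and Dtx4 has the highest value at 2.32.

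The nearest counted genes on either side of each of the 10 genes, by transcription start, were also read. Of 20 such neighbors 9 were tested, and 1 of them was called at 2 h and 5 at 12 h, beside 15.2% and 43.3% of all genes tested, so these counts are no result about the neighbors. At 2 h this was Mkks, 225 kb from Jag1, which was lower while Jag1 rose (log2FC -0.48, edgeR adjusted p = 0.0355). At 12 h Egfl7, 63.4 kb from Notch1, was lower as Notch1 was (log2FC -0.67, edgeR adjusted p = 0.0436), and Ttyh3, 41.7 kb from Lfng, was higher as Lfng was (log2FC 0.73, edgeR adjusted p = 0.0459). Mkks (-0.60), Nudt14 next to Jag2 (-0.56) and Ermard next to Dll1 (-1.29) were lower at 12 h, against the direction of their Notch pathway gene.

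Genes with the most similar course were found by the distance between profiles over the 6 libraries, in log2(CPM + 0.25) units with each profile centered on vehicle. Nearest to Jag1 was Sema4f, a semaphorin gene with 0 counts in both vehicle libraries (distance 0.795), whose place therefore depends on the 0.25 CPM added to each value and for which no fold is given, followed by Gadd45a, a stress-induced gene (distance 0.854, log2FC 3.10 and 4.46). Nearest to Notch1 was the metalloprotease gene Adamts1 (distance 0.494, log2FC -3.24 at 12 h). Notch2 was closest to Smpd3, a sphingomyelinase gene (distance 0.17, log2FC 1.21 and 0.52). The dip of Hes1 was nearest to that of the transcription factor gene Tfap4 (distance 0.509, log2FC -1.76 and 0.26), and Hey1 was nearest to Dgat2, a gene of triglyceride synthesis (distance 0.563, log2FC 0.82 and -1.65). The median distance of all genes tested was 7.55 for Jag1, 4.93 for Notch1, 2.08 for Notch2, 2.58 for Hes1 and 2.85 for Hey1.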

How the data were processed

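RNA was measured in 6 libraries of NMuMG cells, 2 per group, with single-end reads of 50 bp from a stranded total RNA kit. The authors deposited raw counts of 21240 genes with no normalization. According to the study's methods they filtered the reads, aligned them to mm9 with the subjunc function of Rsubread, kept unique alignments, removed duplicates with samtools 0.1.19, and counted reads over exons by strand with featureCounts. Groups came from the submitters' labels, and 0 columns belonged to no sample.

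Tests were run with edgeR 4.0.16 under R 4.3.3 (TMM factors, at least 2 CPM in at least 2 libraries, 1 quasi-likelihood fit of the 3 groups, two-sided tests, Benjamini-Hochberg adjustment within each contrast). Alternatives used limma 3.58.1 (voom, the study's own test), DESeq2 1.42.0, its size factors, total counts, a filter of at least 10 counts in all libraries, no filter on low counts, a block for the replicate number, a prior count of 2, only the 2 groups compared, an absolute log2FC above 1 as an added threshold, and each library left out in turn, where the lone library of a group is assumed to vary like the other groups. Scripts were tested on simulated data.

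The genes named are the 10 listed ones, further pathway genes called against vehicle with an absolute log2FC above 1, neighbors, the most similar genes of Jag1, Notch1, Notch2, Hes1 and Hey1, and marker lists by counts and sums. Some genes that this rule names are not reported here. Other genes, and ratios per kilobase, were chosen after their values were seen. The members and lists were chosen with earlier results of these data known. Positions came from GENCODE on NCBIM37 (18790 genes matched by symbol, 1663 by synonym), and promoters from RefSeq on GRCm38.p6, for 8 of the 10 genes. Python 3.11.15 with pandas 2.3.3 was used for both.

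Depth was 14705886 to 23786993 counts per library. The 2 replicates differed by a median absolute log2 value of 0.152 with vehicle, 0.22 at 2 h and 0.134 at 12 h, and replicates differed by far more than counting error.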

Additional observations from a re-analysis of the deposited data

Results flagged for a closer look

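For 8 Notch pathway genes the level at 12 h differed from that at 2 h in the direct comparison of 12 h with 2 h. The shared vehicle libraries cancel in this comparison. The time without serum and insulin still differs between the groups, and it cannot be told apart from the effect of longer TGFβ1 treatment. The log2FC of 12 h against 2 h was 2.08 for Jag1, 1.50 for Dll1, 2.37 for Notch4 and 1.82 for Hes1. It was -2.29 for Notch1, -2.87 for Hey1, and -0.82 for both Jag2 and Notch2. Among the further pathway genes named, it was -4.84 for Dlk2, -2.87 for Neurl1b, 1.11 for Neurl1a and 1.49 for Maml2. The edgeR adjusted p of these differences ran from 0.000131 for Notch1 to 0.0105 for Hes1 and Neurl1a.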

How the results depend on the processing

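Over 27 log2FC of the 9 tested genes, 396 alternative values were computed, of which 374 kept the direction and the side of the threshold, 13 lost the call, 6 gained it and 3 changed sign, and 17 of the 27 log2FC kept both under every alternative run. The changes of sign were in values that were not called, namely Notch4 at 2 h (-0.30 without vehicle replicate 1, -0.23 without 2 h replicate 2, and up to 0.81 when other libraries were left out) and Lfng at 12 h against 2 h (-0.06 without 2 h replicate 1, and up to 0.48). With libraries left out in turn, the genes called among the 9 were 5 to 7 at 2 h, 5 to 9 at 12 h and 5 to 8 for 12 h against 2 h. Among the further pathway genes they were 4 to 11, 6 to 17 and 2 to 11, and over all genes 618 to 2196, 2822 to 5410 and 1605 to 3816. Fewer libraries were fitted in these cases, and in the comparisons with 12 h Notch4 failed the filter once a 12 h library was gone. With an absolute log2FC above 1 added, 4, 7 and 4 further pathway genes and 692, 2176 and 1593 of all genes passed. Fitting only vehicle and 2 h gave 893 calls over all genes at 2 h in place of 1680. The counts over all genes and the use of the longest transcript were alternatives chosen after seeing the data. Total counts without TMM factors gave 854 genes higher and 975 lower at 2 h, in place of 1098 and 582, and 1830 higher and 3047 lower at 12 h, in place of 2414 and 2385.

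Replicate numbers were shared by the groups, but only 2 pairs exist and no label ties a number to a day or culture batch. Libraries of the same number deviated from their group means with correlations across genes of 0.708, 0.263 and 0.392. With the replicate block, 8 of the 9 genes were called in each comparison, Dll1 and Hey1 being added at 2 h (edgeR adjusted p = 0.0246 and 0.0225) and no other call of the 9 genes changing. It gave 15 further pathway genes for 12 h against 2 h in place of 8, and 3222 genes over all at 2 h in place of 1680.

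Depth limits Notch3 (at most 5 counts), Notch4 and Hey1 most.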

Other observations

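The count of some genes exceeded the number of their exon bases. Jag1 had 36672 and 29624 counts at 12 h on 5827 bases of exon, 6.29 and 5.08 counts per base, and 1.44 and 1.07 per base at 2 h. Notch2 had 1.52 and 1.48 counts per base at 2 h, and Hes1 reached 1.01 in 1 library at 12 h. Of 10845 tested genes with an exon length, 1683 (15.5%) exceeded 1 count per base in at least 1 library. With single-end reads counted by strand, a value well above 1 means that more than 1 read per start position was kept. At its 12 h levels, the duplicate removal named in the study's methods thus did not hold Jag1 to 1 read per position. A value just above 1 cannot show this. Reads can start outside an exon, and the counted exons may differ from those used for length. How many duplicates remain was not tested.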
